A study of Mus musculus with 4 samples.

Results

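The genes that copy the genome and divide the cell were examined in open chromatin of mouse DN3 thymocytes, which had been split by the surface adhesion molecule EpCAM into positive and negative cells. The set held 38 listed genes among 21887 protein-coding genes: 13 of origin licensing and the replicative helicase, 7 of the polymerases and nucleotide supply, 7 of entry into S phase, 10 of G2 and mitosis, and 1 checkpoint kinase. Peaks were taken from the 4 deposited lists wherever they overlapped a gene or the 10 kb on either side of it (build mm10). This gave 82 and 84 peaks in EpCAM-positive replicates 1 and 2, against 71 and 75 in EpCAM-negative replicates 1 and 2. Merged across lists they formed 80 regions out of 36224.

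Both fractions came from thymus of wild-type mice, were sorted by flow cytometry as DN3 cells, and were then separated on magnetic beads with an anti-EpCAM antibody. The EpCAM-positive cells were those held by the beads, and the EpCAM-negative cells were those that carried no label. No treatment is listed, and the sources used here do not state age, strain or the number of mice. Each fraction has 2 ATAC-seq libraries. Nothing in the labels ties them to separate mice, so p-values measure the spread between these libraries, which may be technical.

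DN3 thymocytes stop dividing while they rearrange the T cell receptor beta gene, and those that succeed go through a burst of division at beta-selection. Genes for replication are switched on in late G1 through E2F factors. The retinoblastoma family holds these factors in check until cyclins and their kinases act, cyclin E with CDK2 among them. Genes for mitosis peak later, in G2, and are controlled through cell cycle homology region (CHR) elements, read by the DREAM and MuvB complexes, and through CCAAT boxes, read by NF-Y.

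The promoters of the set carried the elements of this textbook scheme in different genes. Promoter sequences are from RefSeq (GRCm38.p6) and run from 250 bases before to 50 bases after the annotated start, and 31 of the 38 genes had one. A single window was searched for each gene. E2f3 and Mcm7 each have a further annotated start, whose window was not searched. Promoters of Aurkb, Ccna2, Ccne2, Gins1, Gins2, Mcm4 and Pole were not analysed here. Both strands were searched for an E2F word, which was TTTCGCGC, TTTGGCGC, TTTCCCGC or TTTGCCGC. The CHR word was TTTGAA, and the form with a central CG was counted with it, spelled TTCGAA on either strand. The NF-Y box was CCAAT, and the GC box of the Sp family was searched with the letters GGGCGG. Positions are counted from the start, which is 1, and the base before it is −1. At Aurka, Cdc6, E2f1, E2f8 and Orc1 the gene span begins upstream of the window, so sequence nearer that end was not searched. Peak summits lay outside the window in every library at E2f1 and at other genes, among them Cdc6, E2f8, Rrm2, Mcm2, Mcm6 and Cdk1. Those of E2f1 were at −460 and −375 bp in EpCAM-positive libraries, against −728 and −562 bp in EpCAM-negative ones. The searched windows therefore do not cover the most open base at every gene. A match describes the letters of the window and is not a measured binding site.

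Mcm5 and Mcm6, subunits of the MCM helicase, and Orc1, the largest subunit of the origin recognition complex, are shown because they carry the E2F word. Capitals mark the E2F words and the CCAAT boxes. The window of Mcm5 is chr8:75109259-75109558 on the plus strand, that of Mcm6 is chr1:128359656-128359955 on the minus strand, and that of Orc1 is chr4:108579204-108579503 on the plus strand.
Mcm5: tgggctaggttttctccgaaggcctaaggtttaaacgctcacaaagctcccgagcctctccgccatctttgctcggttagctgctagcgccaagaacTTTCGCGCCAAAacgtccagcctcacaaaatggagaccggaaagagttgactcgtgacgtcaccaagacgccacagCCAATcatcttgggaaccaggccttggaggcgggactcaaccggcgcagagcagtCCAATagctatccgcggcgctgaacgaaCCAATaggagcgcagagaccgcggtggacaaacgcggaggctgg
Mcm6: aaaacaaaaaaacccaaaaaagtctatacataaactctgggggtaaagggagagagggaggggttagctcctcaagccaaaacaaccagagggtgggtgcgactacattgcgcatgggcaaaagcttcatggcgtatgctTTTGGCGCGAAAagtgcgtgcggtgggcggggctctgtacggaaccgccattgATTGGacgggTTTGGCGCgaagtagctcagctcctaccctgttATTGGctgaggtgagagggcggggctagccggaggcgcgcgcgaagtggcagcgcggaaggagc
Orc1: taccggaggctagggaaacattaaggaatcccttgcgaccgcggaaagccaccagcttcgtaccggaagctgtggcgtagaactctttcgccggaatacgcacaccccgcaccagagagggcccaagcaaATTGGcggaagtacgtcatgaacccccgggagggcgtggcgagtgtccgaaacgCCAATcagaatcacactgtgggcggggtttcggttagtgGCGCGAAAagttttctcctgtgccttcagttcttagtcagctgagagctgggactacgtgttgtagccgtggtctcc

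In Mcm5 the word lay at −153 to −146, with an overlapping word on the other strand at −149 to −142. Mcm6 had the same overlapping arrangement at −110 to −103 and −106 to −99, and a further word at −47 to −40. In Orc1 a single word lay at −27 to −20. An E2F word occurred in 7 of 10 licensing and helicase promoters (70.0%), namely Cdc6, Cdt1, Mcm3, Mcm5, Mcm6, Mcm7 and Orc1. It occurred in 1 of 6 polymerase and nucleotide promoters (Pola1), in 2 of 5 promoters of entry into S phase (Cdk2 and E2f3) and in 1 of 9 mitosis promoters (Cdk1). Among all 17492 promoters it occurred in 2.92%, and among the 7741 promoters whose start was open in all 4 lists it occurred in 4.84%.

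Cdk1, the kinase that drives entry into mitosis, Ccnb2, a cyclin that activates it, Plk1, the polo kinase of mitotic entry and spindle assembly, and Mki67, the proliferation antigen Ki-67 that coats mitotic chromosomes, are shown for the CHR word. Capitals mark CHR words, CCAAT boxes and, in Cdk1, the E2F word. The window of Cdk1 is chr10:69352863-69353162 on the minus strand, that of Ccnb2 is chr9:70421505-70421804 on the minus strand, that of Plk1 is chr7:122159185-122159484 on the plus strand, and that of Mki67 is chr7:135716330-135716629 on the minus strand.
Cdk1: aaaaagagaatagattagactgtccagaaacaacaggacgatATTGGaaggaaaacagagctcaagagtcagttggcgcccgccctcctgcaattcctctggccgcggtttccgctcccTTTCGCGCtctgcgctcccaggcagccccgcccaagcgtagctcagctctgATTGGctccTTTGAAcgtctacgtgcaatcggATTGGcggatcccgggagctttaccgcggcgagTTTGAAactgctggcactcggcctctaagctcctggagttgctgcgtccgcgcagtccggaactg
Ccnb2: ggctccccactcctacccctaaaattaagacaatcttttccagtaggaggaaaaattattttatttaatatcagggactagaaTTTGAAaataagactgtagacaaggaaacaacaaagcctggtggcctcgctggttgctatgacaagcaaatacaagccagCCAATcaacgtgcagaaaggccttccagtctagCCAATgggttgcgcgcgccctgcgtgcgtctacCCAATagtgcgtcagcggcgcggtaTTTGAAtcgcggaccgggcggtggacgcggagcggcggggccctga
Plk1: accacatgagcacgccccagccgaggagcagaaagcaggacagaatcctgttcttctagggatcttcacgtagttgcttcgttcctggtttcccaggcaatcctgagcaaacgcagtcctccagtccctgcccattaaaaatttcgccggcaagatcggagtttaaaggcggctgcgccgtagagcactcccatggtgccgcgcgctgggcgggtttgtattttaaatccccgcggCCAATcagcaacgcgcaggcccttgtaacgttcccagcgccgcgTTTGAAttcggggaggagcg
Mki67: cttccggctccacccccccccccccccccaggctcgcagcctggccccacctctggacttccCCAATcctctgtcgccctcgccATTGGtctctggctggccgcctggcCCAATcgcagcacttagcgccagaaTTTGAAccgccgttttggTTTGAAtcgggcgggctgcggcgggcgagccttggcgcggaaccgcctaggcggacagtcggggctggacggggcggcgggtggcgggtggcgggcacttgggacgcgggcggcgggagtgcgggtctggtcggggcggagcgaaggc

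Ccnb2 had CCAAT boxes starting at −87, −54 and −21 and a CHR word at 5 to 10, with another at −167 to −162. Cdk1 had CCAAT boxes starting at −208, −80 and −48, CHR words at −71 to −66 and −15 to −10, and the E2F word at −131 to −124. Plk1 had 1 CCAAT box at −14 to −10 and 1 CHR word at 31 to 36, while in Mki67 both CHR words lay upstream, at −116 to −111 and −98 to −93. A CHR word occurred in 7 of 9 mitosis promoters (77.8%; all but Birc5 and Ccnb1), in 3 of 10 licensing promoters (Cdc45, Mcm2 and Mcm7), in 2 of 5 promoters of entry into S phase (E2f3 and E2f8) and in 0 of 6 polymerase and nucleotide promoters. The share was 18.2% among all promoters and 13.5% among open ones.

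**Figure D1:**
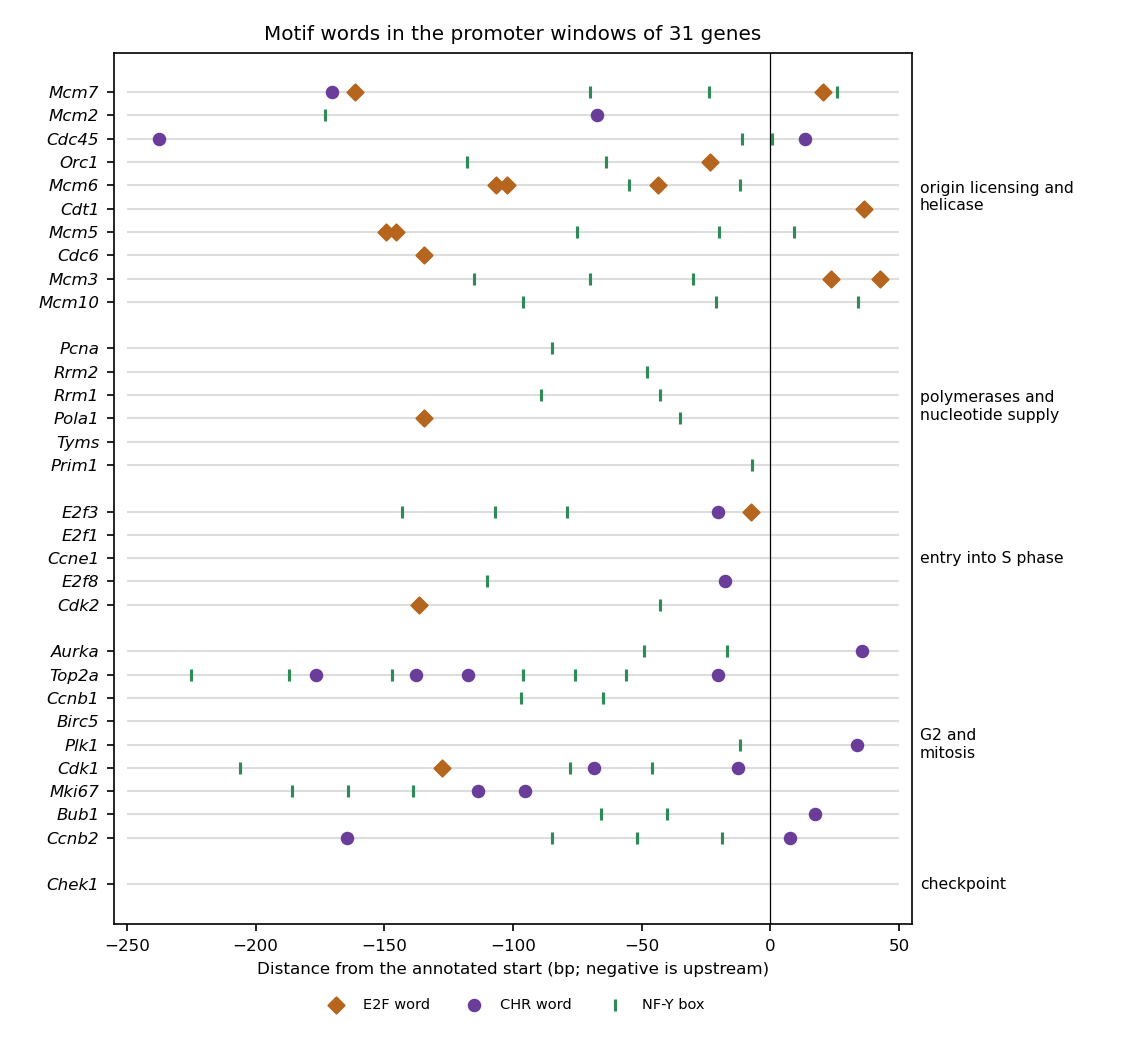
Position of each motif word in the 31 promoter windows, in bp from the annotated start (negative is upstream); rows are genes grouped by role, diamonds are E2F words, circles CHR words and bars CCAAT (NF-Y) boxes. E2F words sit mainly in the licensing and helicase rows, in 7 of 10, and CHR words mainly in the mitosis rows, in 7 of 9.

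CCAAT boxes occurred in 24 of 31 windows (77.4%, against 41.0% of open promoters), and at least 2 of them occurred in 7 of 9 mitosis windows and 7 of 10 licensing windows, but in 1 of 5 windows of entry into S phase, 1 of 6 of the polymerase and nucleotide group and 0 of 1 for the checkpoint, against 17.6% of open promoters. The GC box occurred in 25 of 31 windows (80.6%, against 68.8% of open promoters). Of the 31 windows, only Cdk1, E2f3 and Mcm7 had both an E2F and a CHR word, and 11 had neither, 5 of them in the polymerase and nucleotide group. Words of different motifs overlapped in 1 place, in Mcm7, where the E2F word at 17 to 24 and the CCAAT box at 24 to 28 share a base. Base composition was near that of open promoters, with a median of 57.7% G and C against 61.7%, and 24 against 22 CpG dinucleotides per window.

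The words were also counted in genes outside the set. Of 35 further replication genes with a promoter entry, 11 held an E2F word (31.4%, a lower share than the 70.0% of licensing promoters) and 5 a CHR word (14.3%). Of 27 further mitosis genes, 0 held an E2F word and 21 a CHR word (77.8%). These lists were drawn up from known function, with earlier results of these data in view, and no test was made of the shares.

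**Figure D2:**
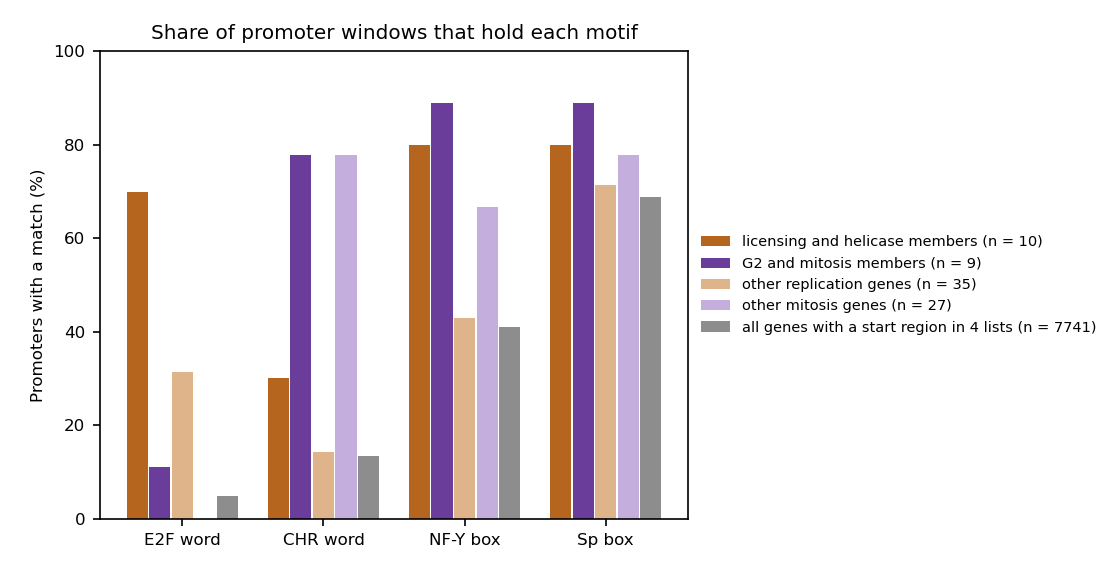
Percent of promoter windows with at least 1 match, for each motif (NF-Y box is CCAAT, Sp box is the GC box); bars are licensing and helicase genes of the set, mitosis genes of the set, further replication genes, further mitosis genes, and all genes with a start region in 4 lists. The E2F word reaches 70.0% in the licensing genes and the CHR word 77.8% in both mitosis lists, against 4.84% and 13.5% of all genes with an open start.

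The lists themselves set what can be read from the peaks. They held 26029 and 29030 peaks in the EpCAM-positive libraries, against 24598 and 25924 in the EpCAM-negative ones, and their lowest local background, a relative measure of depth, was 0.388 and 0.383 fragments, against 0.290 and 0.286. The unit used for accessibility is the number of fragments stacked at a peak's summit, a height at 1 base that does not grow with the width of the peak. Over the regions common to the 4 lists its median was 31 and 32 in the EpCAM-positive libraries, against 25 and 25 in the EpCAM-negative ones, and the per-library values that follow are not scaled for this. Of 8 DN3 markers, 5 and 5 had a peak at the start in the EpCAM-positive lists, against 7 and 5 in the EpCAM-negative lists; Il7r, Ptcra, Rag1 and Rag2 lacked one in at least 1 list. Of markers of other cells, 2 of 6 for thymic epithelium (Aire and Ly75) and 1 of 5 for myeloid cells had a start peak in all 4 lists. Foxn1, Psmb11, Krt5 and Krt8 had none in any list. For B cells the count was 0 of 5, with none in any list, and for double-positive thymocytes it was 0 of 4. Of these 4, 1 had a start peak in EpCAM-positive replicate 2 and in both EpCAM-negative lists.

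Nearly every gene of the set had an open start in both fractions. A start region is one within 500 bp of the annotated start, or of either gene end for the 7 genes without an annotated start. One called in all 4 lists was present at 37 of 38 genes, against 42.6% of all protein-coding genes and 44.3% of those with an annotated start. The exception was Ccna2, the cyclin that carries cells through S phase into mitosis. Its only region, chr3:36571516-36572418, lay inside the gene with its summit 890 bp from the nearer end, and held 73 and 92 summit fragments in EpCAM-positive libraries, against 64 and 86 in EpCAM-negative ones. That is above the median start region of every list, and the region passed as a start region when 1000 bp was allowed. The distance is taken to the edge of a region and not to its summit. The region of Ccne2, which also has no annotated start, passed with its summit 1067 bp from the nearer gene end. In bulk libraries, a site open in fewer cells and a site less open in every cell cannot be told apart.

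**Figure D3:**
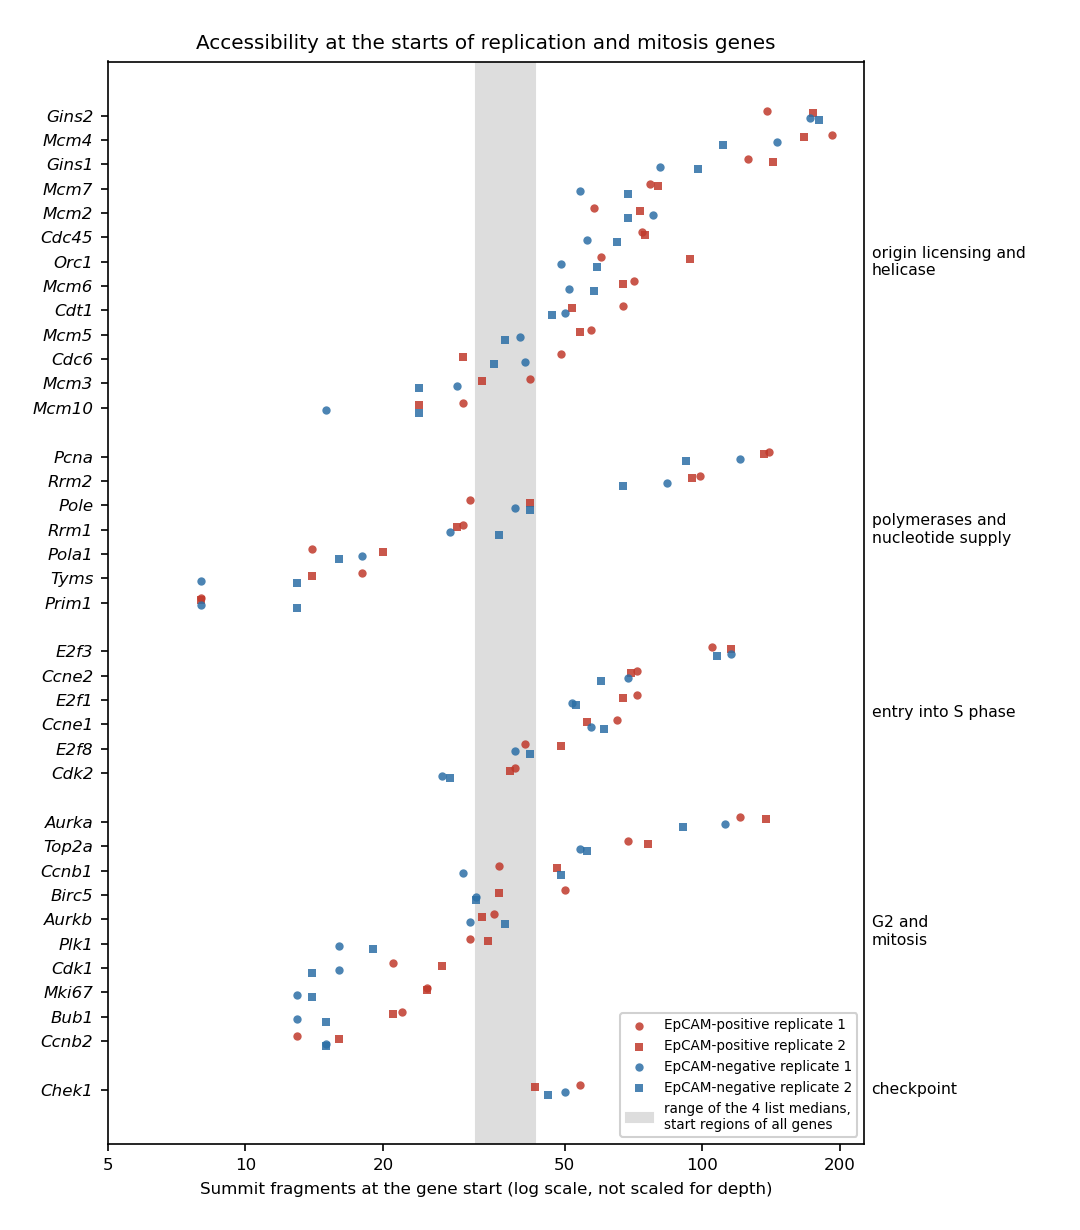
Summit fragments (log axis, not scaled for depth) at the start region of 37 genes, grouped by role; red marks EpCAM-positive and blue EpCAM-negative libraries, circles replicate 1 and squares replicate 2, and the grey band spans the medians of all start regions in the 4 lists (32 to 43). Licensing and helicase genes lie mostly right of the band, while Plk1, Cdk1, Mki67, Bub1 and Ccnb2 lie to its left in all or nearly all libraries.

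Origin licensing and helicase genes were, with genes of entry into S phase, the most open of the set. The licensing median was 67 and 73 summit fragments in EpCAM-positive libraries, against 51 and 59 in the EpCAM-negative ones, and that of entry into S phase was 68.5 and 61.5, against 54.5 and 56.5, while the median over all 8585 start regions called in 4 lists was 42.5 and 43, against 34 and 32. Of the 13 licensing starts, 10 were above that median in all 4 libraries, 2 were below it in all 4 (Mcm3 and Mcm10), and 1, Cdc6, was mixed.

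Gins2, a subunit of the GINS complex that completes the active helicase, had 139 and 175 summit fragments in EpCAM-positive libraries, against 172 and 180 in EpCAM-negative ones. It stood at percentiles 95.7 and 97.9, against 98.8 and 99.3, of the start regions of each list, and the unscaled values of the fractions overlapped. Its region, chr8:120588836-120589689, has its strongest summit in the long noncoding gene Gm10614. Mcm4, a core MCM subunit, had 193 and 167, against 146 and 111. Its region, chr16:15637072-15638049, also covers the start of the neighbour Prkdc, so fragments there cannot be assigned to one of the genes. The same limit holds for Cdc45, Mcm7, Orc1, Aurka and Pole. Their start regions were also start regions of Ufd1, Ap4m1, Prpf38a, Cstf1 and Pxmp2, in that order. At the low end, Mcm10, which joins the helicase to the polymerases, had 30 and 24, against 15 and 24, and Mcm3, another MCM subunit, had 42 and 33, against 29 and 24. The remaining licensing genes ranged from 30 to 143 in EpCAM-positive libraries, against 35 to 98 in EpCAM-negative ones.

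The 6 MCM2-7 subunits form one ring, yet their starts were not equally open. Mcm4 held 193 and 167 summit fragments and Mcm3 held 42 and 33 in the EpCAM-positive libraries, and the same genes were at the ends of the order in the EpCAM-negative libraries, with 146 and 111 for Mcm4 and 29 and 24 for Mcm3. Mcm2, Mcm5, Mcm6 and Mcm7 lay between them, at 54 to 80 in EpCAM-positive libraries against 37 to 78 in EpCAM-negative ones, and their order changed between libraries.

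Genes of the polymerases and of nucleotide supply were spread over the whole range. Pcna, the sliding clamp of the polymerases, had 140 and 137 summit fragments in EpCAM-positive libraries, against 121 and 92 in EpCAM-negative ones. Rrm2, the small subunit of ribonucleotide reductase, had 99 and 95, against 84 and 67. Both were above the median start region of each list, whereas Rrm1, the large subunit of the same enzyme, had 30 and 29, against 28 and 36.

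Prim1, the catalytic subunit of primase, had the smallest start peak of the set in EpCAM-positive libraries, and tied with Tyms in EpCAM-negative ones. It held 8 and 8 summit fragments in EpCAM-positive libraries, against 8 and 13 in EpCAM-negative ones, at percentiles 2.4 and 2.6 of their lists, against 4.2 and 17.1. Tyms, thymidylate synthase, had 18 and 14, against 8 and 13, and Pola1, the catalytic subunit of polymerase alpha, had 14 and 20, against 18 and 16. Prim1 and Pola1 act in one complex, and both starts were below the median of all start regions in every library. Pole, the catalytic subunit of polymerase epsilon, had 31 and 42, against 39 and 42, and the unscaled values overlapped.

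Among genes of entry into S phase, E2f3, an activating E2F factor, was the most open. It had 105 and 116 summit fragments in EpCAM-positive libraries, against 116 and 108 in EpCAM-negative ones, and the unscaled values overlapped. Both E cyclins were above the list medians in all libraries, Ccne2 with 72 and 70, against 69 and 60, and Ccne1 with 65 and 56, against 57 and 61. E2f1, another activator, had 72 and 67, against 52 and 53. E2f8, a repressing E2F factor, was lower, with 41 and 49, against 39 and 42. Their kinase partner Cdk2 had 39 and 38, against 27 and 28, so its start was less open than those of its cyclins in every library.

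Genes of G2 and mitosis had lower starts, at a median of 33 and 33.5 summit fragments in EpCAM-positive libraries, against 23 and 25.5 in EpCAM-negative ones. Of the 10, 2 were above the median start region in all 4 libraries and 5 were below it in all 4. The upper pair was Aurka, the spindle pole kinase Aurora A, with 121 and 138, against 112 and 91, and Top2a, the topoisomerase that separates sister chromatids, with 69 and 76, against 54 and 56. By the mean over the 4 libraries the lowest were Ccnb2, with 13 and 16, against 15 and 15, and Bub1, a kinase of the spindle checkpoint, with 22 and 21, against 13 and 15, though Mki67 and Cdk1 were as low or lower in single libraries. The Aurka start, in the region chr2:172370407-172371192, lay 433 bp from the opposite-facing start of Cstf1, whereas no such neighbour within 1000 bp was annotated at the other mitosis genes with a start in the table.

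The starts of Cdk1, Mki67 and Plk1, whose promoters are printed above, were also low. Cdk1 had 21 and 27 summit fragments in EpCAM-positive libraries, against 16 and 14 in EpCAM-negative ones. Mki67 had 25 and 25, against 13 and 14, and Plk1 had 31 and 34, against 16 and 19. In each of the 3 genes both EpCAM-positive values were above both EpCAM-negative ones, also after scaling, as at 21% of all start regions, while Ccnb2 and Aurkb separated the other way after scaling. Ccnb1, the main mitotic cyclin, had 36 and 48, against 30 and 49, Birc5, which encodes survivin of the chromosomal passenger complex, had 50 and 36, against 32 and 32, and its kinase partner Aurkb had 35 and 33, against 31 and 37. Chek1, the kinase of the replication checkpoint, had 54 and 43, against 50 and 46. For Ccnb1, Aurkb and Chek1 the unscaled values of the fractions overlapped.

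Local background, the fragments per base that the peak caller set around each summit, was also higher at licensing starts than at mitosis starts. Its median was 4.92 and 4.62 fragments at licensing starts in EpCAM-positive libraries, against 3.36 and 3.58 in EpCAM-negative ones, and 2.56 and 2.34, against 1.79 and 1.85, at mitosis starts. Its part in the order of the summit values was not tested. Summits lay close to the annotated starts, at a median of −52 and −28 bp in EpCAM-positive libraries, against 46 and 52 bp in EpCAM-negative ones (31 genes). Over 7731 start regions of all genes the medians were 50 and 32 bp, against 34 and 20 bp. The summit of Bub1 lay at −274 and −273 bp in EpCAM-positive libraries, against 72 and 164 bp in EpCAM-negative ones, whereas that of Plk1 lay at −226 and −169 bp, against −138 and −171 bp, and overlapped. Positions separated at other genes too, such as Cdk1 (95 and 134 bp, against 206 and 573 bp). The share of all starts that separate was not counted. Windows with an E2F word had median starts of 57 and 52 summit fragments in EpCAM-positive libraries, against 41 and 37 in EpCAM-negative ones (11 genes), and windows without one had 45.5 and 45.5, against 35.5 and 44 (20 genes), so the order differed between libraries. For the CHR word these medians were 49.5 and 61, against 46.5 and 49, with a match (12 genes) and 50 and 43, against 40 and 37, without (19 genes), higher with a match in 3 of 4 libraries. Divergent neighbours within 1000 bp were annotated at 4 of 31 starts (Aurka, Cdc45, Mcm7 and Orc1; 12.9%, against 8.48% of all annotated starts).

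Beyond the starts, the windows held few regions. Of the 80, 61 were called in all 4 lists (76.2%, against 50% of regions in the windows of all genes), of which 37 were the starts above, 15 lay at the start of another gene and 9 at no gene start. At 13 genes, among them Chek1, Mcm4, Mcm5, Cdk1 and Mki67, a single region made up the whole window. Called in both EpCAM-positive lists and neither EpCAM-negative list were 3 regions (3.75%, against 4.41%), and 1 was called in both EpCAM-negative lists and neither EpCAM-positive list (1.25%, against 1.48%). These shares are near those of all genes. The remaining 15 were called in 1 list (7), in 1 list of each fraction (5) or in 3 lists (3). As a share of each list, peaks in the windows averaged 0.302% ± 0.0181 in EpCAM-positive and 0.289% ± 0.0005 in EpCAM-negative libraries (SD, n = 2 each; exact permutation test, two-sided, p = 0.33, and no smaller p can arise from 2 libraries against 2).

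**Figure D4:**
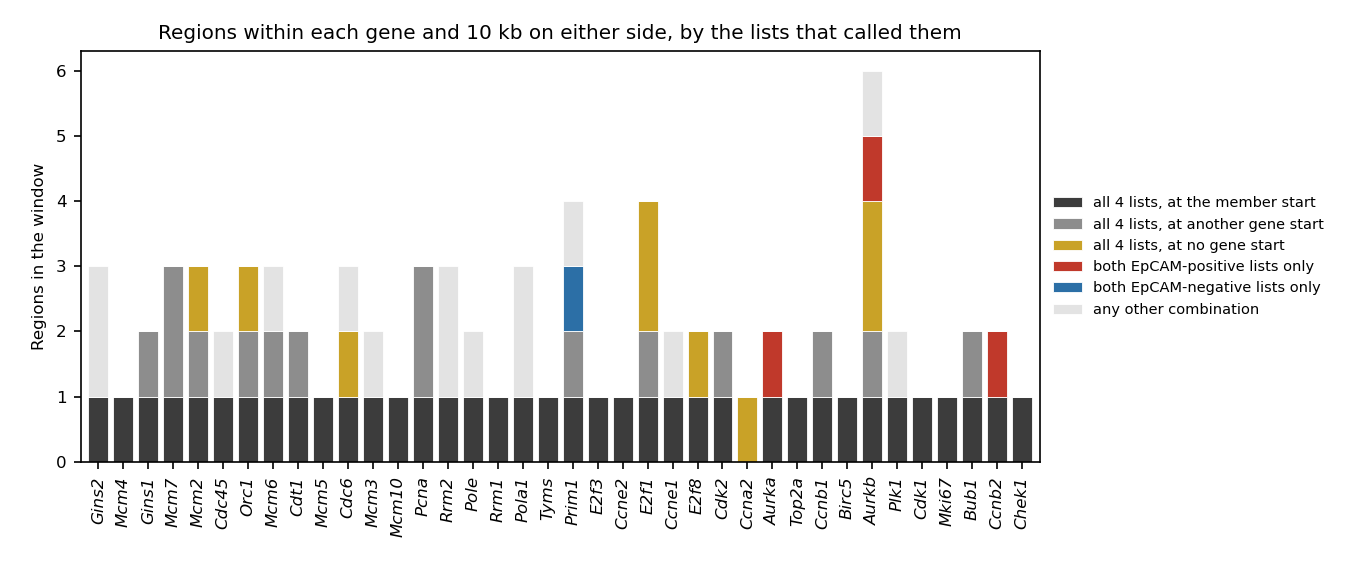
Number of merged regions in the window of each gene (gene and 10 kb either side), by which lists called them; genes are in the order of the plot of levels by library, with Ccna2 added. Each gene but Ccna2 has a black segment for its own start, and the 3 red and 1 blue segments mark regions called in one fraction only.

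The regions called in one fraction only lay outside the genes they were assigned to. At Aurka, chr2:172378302-172378546 held 14 and 16 summit fragments in the EpCAM-positive lists. It lay within the neighbour Cstf1, 7551 bp from Aurka, and the nearest EpCAM-negative peak was 3194 bp away. At Ccnb2, chr9:70403376-70403738 held 7 and 7, in no RefSeq gene, 4196 bp from Ccnb2 and 17608 bp from the nearest EpCAM-negative peak. In the EpCAM-negative lists only, chr10:128004840-128005386 held 16 and 11. It lay within Hsd17b6, 10235 bp from Prim1 by its summit, and an EpCAM-positive peak stood 2978 bp away.

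The third EpCAM-positive region belonged to a stretch upstream of Aurkb, in no RefSeq gene, that held more than 1 region. That region, chr11:69037051-69037390, lay 8406 bp from the gene and held 34 and 31 summit fragments in the EpCAM-positive lists. A neighbour at chr11:69037512-69037797 was called in EpCAM-positive replicate 1 alone, with 41. Nearer the gene, chr11:69040095-69040995 held 55 and 47 in EpCAM-positive libraries, against 29 and 29 in EpCAM-negative ones, and chr11:69041004-69041731 held 64 and 63, against 32 and 32. In both, each EpCAM-positive value was above each EpCAM-negative one, also after scaling, as at 19.3% of all regions. The fit described below gave a log2 difference of 0.66 for the second of them (SE 0.211, 95% interval 0.22 to 1.09; limma unadjusted p = 0.00504, adjusted p = 0.169) and 0.48 for the first (adjusted p = 0.382). The local background at the second was 11.6 and 9.8 fragments in EpCAM-positive libraries, against 6.0 and 5.1 in EpCAM-negative ones, so summit and surroundings were higher together. The start of Aurkb itself, with 35 and 33, against 31 and 37, was not higher. Of all 61 window regions in the fit, starts included, 3 were higher and 8 lower in EpCAM-positive cells (limma unadjusted p under 0.05). That is 18%, against 12.9% of all regions, and 0 passed after adjustment. Among the lower ones, the region at the start of Lct beside Mcm6 had a log2 difference of −0.88 (limma adjusted p = 0.189).

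Of the other regions called in all 4 lists at no gene start, most were weak. Inside the genes, chr6:88886536-88886858 in Mcm2 held 13 and 17 summit fragments in EpCAM-positive libraries, against 11 and 9 in EpCAM-negative ones, and chr4:108587544-108588190 in Orc1 held 16 and 17, against 11 and 12. Beside E2f1, chr2:154552355-154552941 held 19 and 22, against 15 and 11, within Actl10 and Necab3, and chr2:154576646-154577340 held 25 and 29, against 28 and 27, in no RefSeq gene. Upstream of E2f8, chr7:48888221-48888860 held 15 and 13, against 11 and 15. The weakest, chr11:98900548-98901000 in Wipf2 next to Cdc6, held 8 and 8, against 8 and 9. After scaling, EpCAM-positive values were above EpCAM-negative ones at the Orc1 and first E2f1 regions (19.3% of all regions), below them at the second E2f1 region and at that next to Cdc6 (24.4% of all regions), and overlapped at the Mcm2 and E2f8 regions, and adjusted p-values in limma were at least 0.586 for all 6.

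Between the fractions, accessibility at the starts of the set did not pass the test at any gene as fitted, and passed at 1 (Gins2, lower) when each library was scaled by its lowest background. That scaling called 206 of all 16758 regions, 18 higher and 188 lower in EpCAM-positive cells. It also moved the median log2 difference over all regions from −0.027 to −0.114. Log2 summit fragments, each library centred on its median, were fitted with limma over 16758 regions called in all 4 lists. Of the 37 start regions 0 were called in either direction at an adjusted p of 0.05 (lowest adjusted p = 0.132), against 0.0955% of all regions (0.0239% higher and 0.0716% lower). Among the start regions of all genes, 0 of 8584 were called (limma lowest adjusted p = 0.0538), so the count of 0 does not set these genes apart. At an unadjusted p under 0.05 there were 5 (13.5%), 1 higher and 4 lower in EpCAM-positive cells, against 12.9% of all regions and 8.64% of the 8584 start regions in the fit. The median log2 difference was 0.02, which was also the median over all start regions (0.02), and single genes ranged from −0.68 to 0.56 with a median SE of 0.21. By role the medians were 0.03 for licensing and helicase, −0.35 for polymerases and nucleotide supply, −0.19 for entry into S phase and 0.07 for mitosis.

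The 5 starts with an unadjusted p under 0.05, and Mki67 and Prim1 near the ends of the range, were picked after their values were seen. Plk1 had a log2 difference of 0.56 (95% interval 0.001 to 1.13; limma unadjusted p = 0.0495, adjusted p = 0.386) and Mki67 had 0.56 (−0.05 to 1.16; adjusted p = 0.432). Gins2 had −0.51 (−0.81 to −0.20; unadjusted p = 0.0024, adjusted p = 0.132), although its unscaled values overlapped, and scaling by the lowest background of each list brought its limma adjusted p to 0.0475. Mcm2 had −0.51 (adjusted p = 0.235), with 58 and 73 summit fragments in EpCAM-positive libraries, against 78 and 69 in EpCAM-negative ones. Pole had −0.50 (adjusted p = 0.368), E2f3 −0.35 (adjusted p = 0.344) and Prim1 −0.68 (−1.39 to 0.02; adjusted p = 0.4).

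After scaling, both EpCAM-positive values were above both EpCAM-negative ones at 7 starts (Bub1, Cdk1, Cdk2, Gins1, Mcm5, Mki67 and Plk1), against 21% of all start regions. They were below at 13 (Aurkb, Ccnb2, Ccne1, Ccne2, Chek1, E2f3, E2f8, Gins2, Mcm2, Pola1, Pole, Prim1 and Rrm1), against 18.1%. The other 17 overlapped. The upper group holds 4 mitosis genes and the lower group 2, and the polymerase and nucleotide genes that separated were all lower. These sides depend on the scaling: 20 of 37 differences were above 0 as fitted, 12 when each library was scaled by its lowest background and 29 with no scaling, where the median over all regions was itself 0.31.

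**Figure D5:**
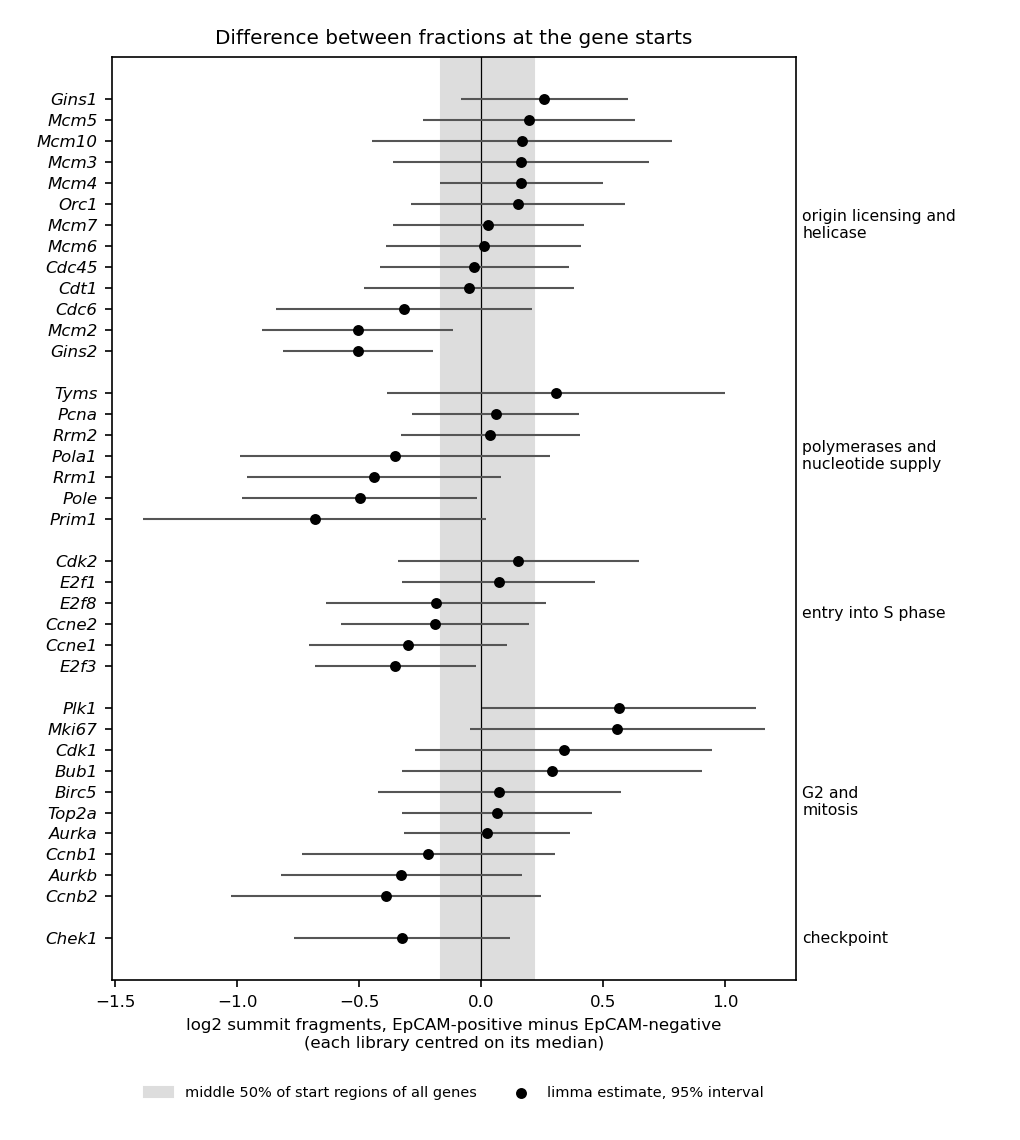
Difference in log2 summit fragments, EpCAM-positive minus EpCAM-negative, at 37 start regions (points, limma estimate; lines, 95% interval), grouped by role and ordered by value; the grey band holds the middle 50% of all start regions. Most intervals cross 0, Plk1 and Mki67 are the highest points at 0.56, Prim1 is the lowest at −0.68, and 0 of 37 pass after adjustment.

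Further genes of the same pathways were taken as lists by function, and 98 of 110 had a start region in all 4 lists. It was called at 41 of 43 further replication genes (all but Timeless and Tk1), 34 of 35 further mitosis genes (all but Kif2c) and 7 of 8 checkpoint genes (all but Rad9a). It was called at 11 of 17 genes for other cyclins, E2F factors and pocket proteins, where Ccnd1, Ccnd2, E2f2, E2f4, Rb1 and Tfdp2 lacked one, and at 5 of 7 CDK inhibitors, where Cdkn1a and Cdkn1c lacked one. Of the 97 such start regions in the fit, 0 were called by limma at an adjusted p of 0.05, 3 were higher and 4 lower at an unadjusted p under 0.05, and the median log2 difference was −0.04.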

How the data were processed

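ATAC-seq of EpCAM-positive and EpCAM-negative DN3 thymocytes was used as deposited, with 1 narrow peak list for each library and no pooled list. Per the submitters' processing notes, MACS3 and Bowtie2 were among the tools, with Trim Galore, Trimmomatic, Picard, SAMtools, deepTools, bedtools and FastQC, and the build was mm10 (GRCm38). The sources used here state no versions, roles, read shift or caller settings. Each deposited list gives a display score, a ratio (fold of the summit over local background), the −log10 p and −log10 q, and the summit offset, all made by the authors' caller. The display score was not used.

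Summit fragments and local background are the pair of values that gives both the deposited fold and its −log10 p (Poisson upper tail, 1 fragment added above and below the line in the fold; tolerance 0.01). This worked for 99.9885% to 99.9959% of peaks, with a single solution at all 176 peaks of the start regions. Read totals are not known. Peaks on chromosomes 1 to 19, X and Y overlapping by at least 1 bp were merged. Starts and promoters came from RefSeq GRCm38.p6, without exon annotation. Differences were fitted with limma 3.58.1 (R 4.3.3, eBayes with trend, Benjamini-Hochberg, threshold 0.05). The code was first run on simulated Poisson counts, which hold no spread between libraries beyond sampling and so do not show how the fit performs on these libraries. Genes, lists and motifs were chosen with earlier results of these data known. Per-library values are given for the highest and lowest starts of each role, for one-fraction regions and for regions at no gene start, and others were named after their values were seen. Alternatives were other scalings, thresholds, windows, distances, a replicate block, and each library left out.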

Additional observations from a re-analysis of the deposited data

How the results depend on the processing

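Of 163 alternative values, 137 kept their direction and their side of the threshold or stayed near the reported value. The count of called starts, 0 of 37, became 1 when libraries were scaled by the lowest background of each list (Gins2, log2 difference −0.60; limma adjusted p = 0.0475), and was 0 with each library left out in turn, where limma's pooled spread assumes that the lone library varies like the pair. With the replicate number as a block it became 2 (Gins2, limma adjusted p = 0.00134, and Mcm2, adjusted p = 0.0426). The replicate 1 minus replicate 2 differences in one fraction correlated with those in the other at r = 0.16 over 16758 regions. There are only 2 pairs, which no label ties together, so the block is given here alone and the libraries are not taken as paired. The number of all regions called by limma moved most, from 16 as reported to 206 (18 higher, 188 lower) with background scaling, 94 with the median of start regions, 234 with regions called in at least 3 lists, 45 at −log10 q of at least 5, 789 (253 higher, 536 lower) with the block, 0 with no scaling and with no intensity trend, and 0 to 191 with a library left out. Leaving out EpCAM-negative replicate 1 gave 191, leaving out EpCAM-negative replicate 2 gave 50, and leaving out either EpCAM-positive library gave 0. The median log2 difference of the starts, 0.02, was 0.36 with no scaling and lay between −0.08 and 0.03 with a library left out.

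Regions called in the EpCAM-positive lists only, 3, became 0 in gene spans alone and 3 to 6 with a library left out (6 without either EpCAM-positive library or without EpCAM-negative replicate 2). Those called in the EpCAM-negative lists only, 1, became 2 at −log10 q of at least 5, 0 in gene spans alone and 1 to 2 with a library left out (2 without EpCAM-negative replicate 1). Regions called in all 4 lists, 61, became 39 in gene spans alone. The share of peaks in the windows, higher by 0.0133 percentage points in EpCAM-positive lists, turned to −0.00208 at −log10 q of at least 5 (two-sided exact permutation p = 1.0) and ranged from 0.00046 to 0.0261 with a library left out. Genes with a start region in 4 lists numbered 36 to 38 over all settings. Prim1 was not in the fit at −log10 q of at least 5. With 2 libraries per fraction and no read totals, differences smaller than about the intervals given for single genes were not detectable. The causes of these movements were not tested.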
